A study of Glycine max with 12 samples.

Results

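Event e19 is a transgenic line of soybean (Glycine max) in which the GmUBQ promoter drives the construct, and its developing seeds were set against null seeds of the same genotype, 93Y21. The 3 e19 libraries, whose titles carry the code 19A and the mark HOM, were compared with the 6 null libraries, whose titles carry the code 33A. That is 9 of the 12 libraries of the series, and the other 3 came from a second event, e15 (code 15A, also marked HOM). All seeds were collected 35 days after flowering, and the labels name no other allele or treatment. How the nulls relate to e19 and whether replicates came from separate plants is left unsaid in the labels. The p-values therefore refer to the scatter among these libraries, part or all of which could be technical, and e19 stands for 1 line. Members were all genes that passed a filter on low counts, 32115 of the 52872 gene identifiers in the deposited table. The identifiers stand without names in that table, and 0 of them matched the RefSeq gene table of Glycine_max_v4.0, so genes are given by identifier and no role is stated for any of them. For the same reason neither the seed tissue nor the construct's own gene could be checked against the labels.

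As background, the construct expresses GmCGS2, a soybean cystathionine gamma-synthase, in a form with a deletion, per the series title. This plastid enzyme joins phosphohomoserine and cysteine, which commits carbon to methionine. In Arabidopsis the enzyme's N-terminal region carries a control by which methionine's product S-adenosylmethionine lowers the level of the enzyme's messenger RNA. Soybean cotyledons in the filling stage devote much of their messenger RNA to a few storage proteins that are poor in sulfur amino acids, while protease inhibitors are richer in them. An event is a separate insertion of the construct, so that events can differ in insertion site and copy number as well as in expression of the transgene.

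The e19 libraries held 19207771 to 21900491 counts and the nulls 21357512 to 23276877. Null replicates 1 to 3 and null replicates 4 to 6 stood apart from each other, with 3079 genes called between them (9.59% of those tested), and e19 replicate 3 lay between them. Results on e19 are therefore given against all nulls first, and the counts of calls and some of the genes also against each null set. The 20 most abundant genes took 46.3%, 46.7% and 43.2% of the counts in e19 replicates 1, 2 and 3, against 38.4% to 39.6% in nulls 1 to 3 and 43.7% to 44.4% in nulls 4 to 6. Differences between replicates exceeded counting noise in every pair of libraries within a group. In seed tissue fewer cells of a type and less RNA per cell cannot be told apart.

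In e19 seeds 24 genes changed against the nulls, 15 risen and 9 fallen, which is 0.0747% of the genes tested (0.0467% risen and 0.028% fallen). Genes were called at a false discovery rate of 0.05 in edgeR's quasi-likelihood test, and adjusted p-values are from that test. No e19 library overlapped the nulls for any of the 24, and 1.57% of all tested genes lay above and 1.58% below the nulls in all 3 e19 libraries. The call and the overlap use the same values, so nothing is read from that contrast. The median log2 change was 1.39 over the risen genes and -1.27 over the fallen ones, and -0.01 over all tested genes. The changes reached 2-fold for 17 of the 24, and the smallest in size was 0.41 on the log2 scale. By their identifiers the 24 genes lie on 14 of the 20 chromosomes, with 4 on chromosome 9 and 3 each on chromosomes 4, 13 and 14. Only 6 of them had whole counts in every library. The others had values that were not whole, as arise when counting splits a read among several genes, so levels of near-identical copies are uncertain.

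**Figure D1:**
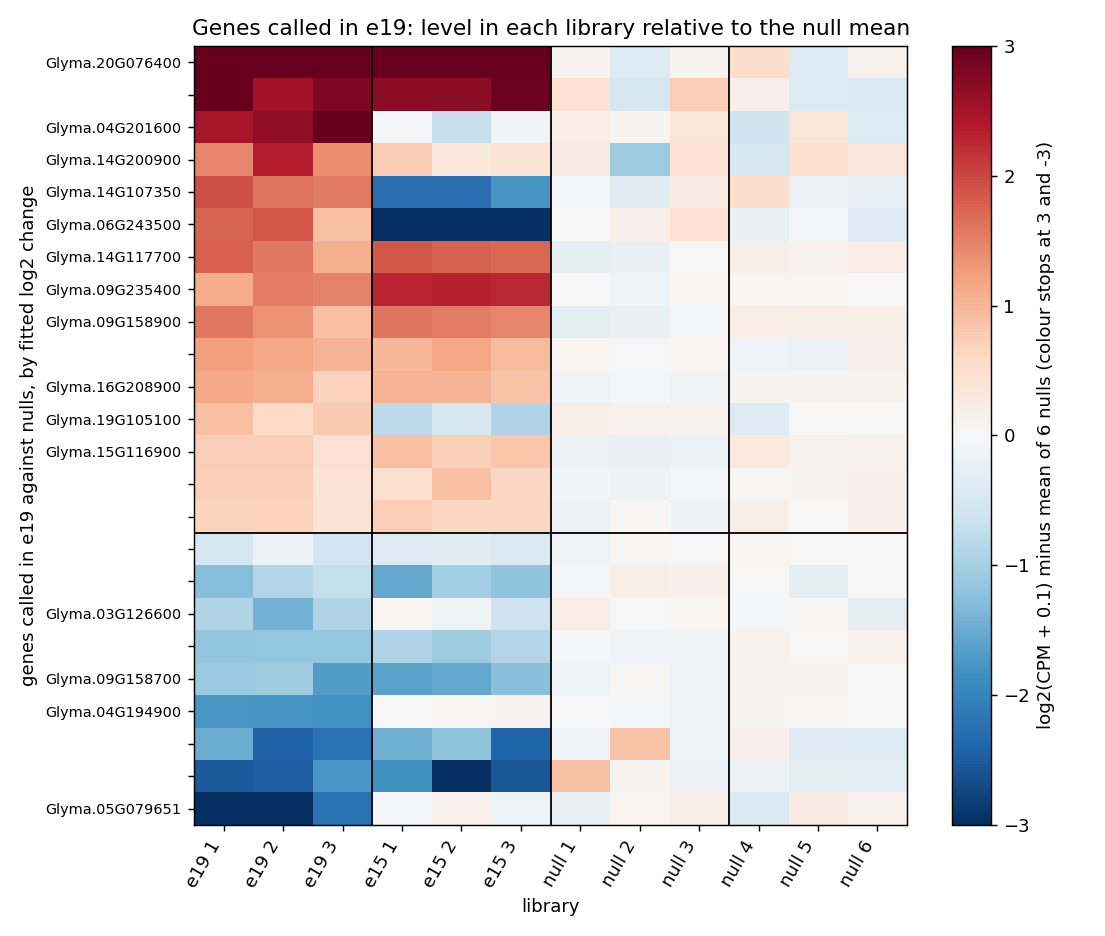
Each row is a gene called in e19 against the nulls and each column a library, with colour for log2(CPM + 0.1) minus the mean of the 6 nulls, and identifiers printed for the genes described in the text. The 15 risen genes are red and the 9 fallen genes blue in all 3 e19 libraries, and the e15 columns are near the null level or of the opposite colour for a few of them.

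The largest rise was that of Glyma.20G076400, a gene all but silent in the nulls. It was at 9.05, 6.58 and 8.43 CPM (counts scaled to a common library size) in e19 replicates 1, 2 and 3, against 0 to 0.0926 CPM in the nulls with a median of 0.0412 CPM. Its 475 counts in e19 and 5 in the nulls gave a ratio of 223, with an exact 95% interval of 95.03 to 691 that covers counting error only (adjusted p = 4.46e-14). The mean level was 8.02 ± 1.29 CPM in e19 and 9.41 ± 0.477 CPM in e15 (SD, n = 3 each), and the difference of e19 from e15 was -0.23 on the log2 scale with an interval of -0.53 to 0.07. All of its counts were whole.

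A much larger amount of message lay in 3 abundant genes that rose, singled out after their values were seen because they alone among the 24 exceeded 1000 CPM in e19. Glyma.16G208900, the most abundant of the risen genes, was at 10131, 9751 and 7400.1 CPM in e19, against 4256 to 4859 CPM in the nulls with a median of 4615 CPM. Glyma.09G158900 was at 10277, 8842 and 6446 CPM in e19, against 2823 to 3967 CPM in the nulls with a median of 3605 CPM. Glyma.14G117700 was at 3256, 2816 and 1973 CPM in e19, against 778 to 1071 CPM in the nulls with a median of 982 CPM. In all 3 genes e19 replicate 3 was the lowest of the e19 libraries and still above every null. Their levels were 1.99, 2.44 and 2.83 times those of the nulls, with SEs of 0.10, 0.13 and 0.13 on the log2 scale and adjusted p-values of 4.97e-06, 4.09e-05 and 4.09e-05. Together the 3 genes took 1.92 ± 0.299% of all counts in e19 (SD, n = 3), against 0.930 ± 0.0311% in the nulls (n = 6), and 2.21%, 1.94% and 1.61% in e19 replicates 1, 2 and 3. In e15 their share was 2.16 ± 0.0582% (n = 3). None of the 3 passed the test between the events, with log2 differences of e19 from e15 of 0.02 (interval -0.21 to 0.26), -0.23 (-0.56 to 0.09) and -0.26 (-0.61 to 0.08). Counts were not whole in all 12 libraries for Glyma.09G158900 and Glyma.14G117700 and in 5 for Glyma.16G208900.

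**Figure D2:**
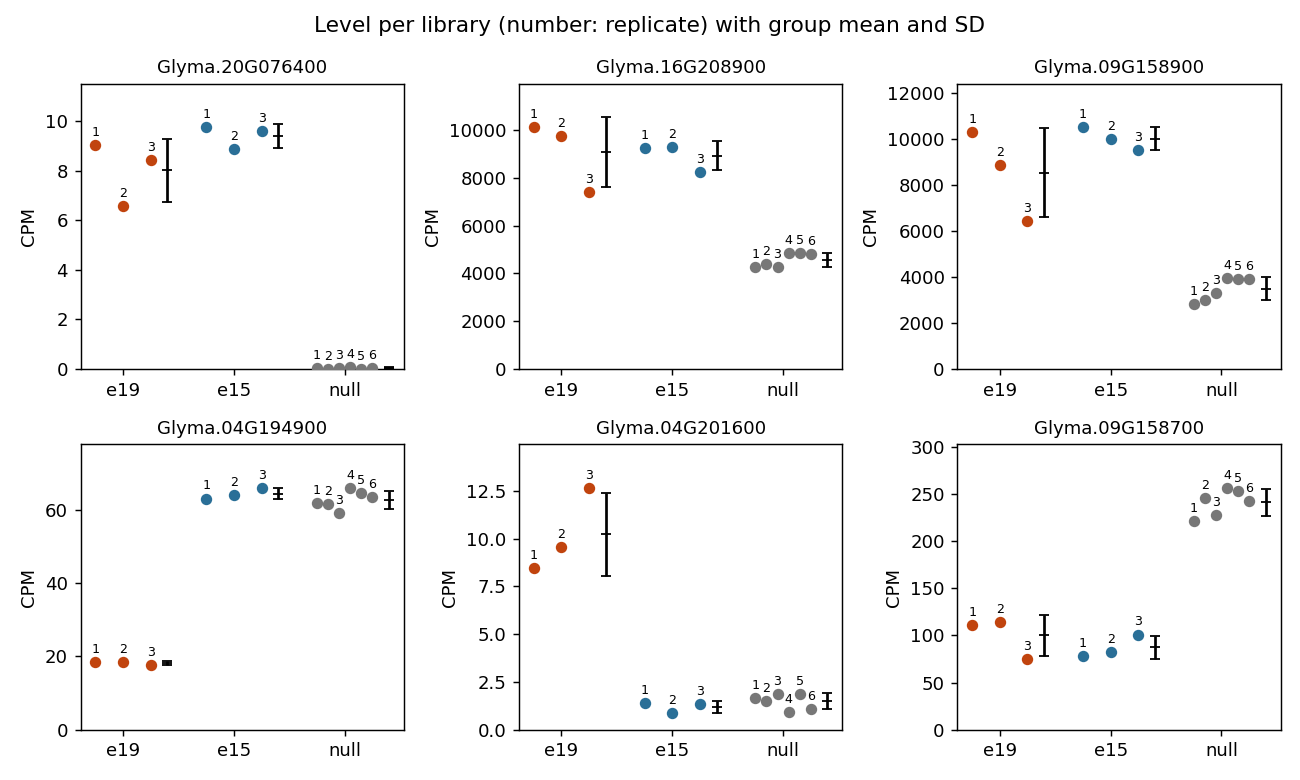
Level in CPM of 6 genes in each library of e19, e15 and the nulls, with the replicate number above each point and the group mean and SD beside the points. Glyma.04G194900 and Glyma.04G201600 depart from the nulls in e19 and not in e15, and replicate 3 is the lowest e19 library for Glyma.16G208900 and Glyma.09G158900.

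The largest fall among genes of at least 5 CPM was that of Glyma.04G194900. It was at 18.5, 18.4 and 17.7 CPM in e19, against 59.1 to 66.03 CPM in the nulls with a median of 62.6 CPM. The e19 libraries were close to one another and far below every null. The log2 change was -1.79 ± 0.06 (SE), with an adjusted p of 7.00e-14. The most abundant fallen gene, Glyma.09G158700, was at 111, 114 and 74.8 CPM in e19, against 221 to 256 CPM in the nulls with a median of 244 CPM. All e19 libraries lay below all nulls, and here e19 replicate 3 was the farthest from them. Its log2 change was -1.27 ± 0.12 (SE), with an adjusted p of 8.91e-05. The next tested gene along chromosome 9 is the abundant riser Glyma.09G158900, and both had counts that were not whole in all 12 libraries.

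Set against the other event, 7 of the 24 genes differed between e19 and e15 in the direct test, where 0.299% of all tested genes did. The 2 contrasts share the e19 libraries, so nothing is read from that excess. The other 17 did not pass the direct test. Both events share the nulls. Against them 16 of the 24 genes were called in e15 in the same direction, 3 in the opposite one and 5 were not called. In e15 0.754% of all tested genes were called, and with shared nulls nothing is read from that excess either. By these calls the 7 comprised 3 genes called in e19 alone, 3 called in opposite directions in the events and 1 that rose in both. The 3 called in e19 alone were named after their values were seen. They were Glyma.04G194900, Glyma.04G201600 and Glyma.05G079651. Glyma.04G194900 had 64.4 ± 1.46 CPM in e15 (n = 3), and e19 lay below e15 by a log2 difference of -1.82 ± 0.07 (SE), with an adjusted p of 5.55e-13. Glyma.04G201600 was at 8.46, 9.57 and 12.7 CPM in e19, against 0.853 to 1.38 CPM in e15 and 0.926 to 1.88 CPM in the nulls. Its rise over the nulls was 2.77 ± 0.18 on the log2 scale (SE, adjusted p = 1.26e-08) and its excess over e15 was 3.09 ± 0.23 (adjusted p = 8.22e-08). These 2 genes lie on the same chromosome, 4, with 45 tested genes between them.

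Glyma.05G079651 nearly disappeared in e19, with 3, 0 and 10.1 counts in replicates 1, 2 and 3, against 44.1 to 78.0 counts per library in the nulls. The level was 0.219 ± 0.263 CPM in e19 (n = 3), 2.77 ± 0.241 CPM in e15 (n = 3) and 2.83 ± 0.506 CPM in the nulls (n = 6). Its ratio of nulls to e19 was 12.9, and counting error alone allowed 7.43 to 24.4. The adjusted p was 5.45e-05 against the nulls and 6.37e-05 against e15. Counts of Glyma.04G194900, Glyma.04G201600 and Glyma.05G079651 were not whole in 12, 4 and 10 libraries.

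The 3 genes called in opposite directions, also named after their values were seen, rose in e19 and fell in e15. Glyma.06G243500 was at 10.9, 11.8 and 5.87 CPM in e19 and at 0 to 0.276 CPM in e15, against 2.41 to 4.36 CPM in the nulls. Glyma.14G107350 was at 1.76, 1.37 and 1.33 CPM in e19 and at 0 to 0.0434 CPM in e15, against 0.281 to 0.602 CPM in the nulls. Glyma.19G105100 was at 14.4, 11.7 and 13.3 CPM in e19 and at 4.04 to 5.45 CPM in e15, against 5.79 to 8.67 CPM in the nulls. In each gene no library of an event overlapped those of the other event or of the nulls. Counts of Glyma.06G243500 were not whole in 11 libraries, so its levels are uncertain if it has near-identical copies, while those of Glyma.14G107350 and Glyma.19G105100 were whole. Log2 changes in e19 were 1.56 ± 0.24, 1.89 ± 0.30 and 0.77 ± 0.11 (SE), with adjusted p-values of 0.0299, 0.00458 and 0.00172. The call of Glyma.06G243500 in e19 was lost without e19 replicate 1 or 2 (adjusted p = 0.209 and 0.195) and without null replicate 1, 2, 4, 5 or 6 (0.121, 0.101, 0.0871, 0.101 and 0.0538), as well as without e15 replicate 2 (0.0931). The call of Glyma.14G107350 was lost without e19 replicate 1 (adjusted p = 0.103).

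Glyma.09G235400 rose in both events and by less in e19. It was at 97.1, 131 and 127 CPM in e19 and at 215 to 223 CPM in e15, against 41.8 to 46.6 CPM in the nulls with a median of 45.6 CPM. The log2 change was 1.39 ± 0.07 in e19 (SE, adjusted p = 1.58e-10), and e19 was below e15 by a log2 difference of -0.89 ± 0.09 (adjusted p = 2.39e-06). The remaining 2 genes called in e19 and not in e15, named after their values were seen, did not pass the direct test between the events. Glyma.03G126600 averaged 12.7 ± 2.41 CPM in e19 (n = 3), 23.1 ± 5.36 CPM in e15 (n = 3) and 26.6 ± 2.76 CPM in the nulls (n = 6), with an adjusted p of 0.112 between the events. Glyma.14G200900 averaged 1.52 ± 0.643 CPM in e19, 0.562 ± 0.114 CPM in e15 and 0.399 ± 0.180 CPM in the nulls, with an adjusted p of 0.241 between the events. Both calls were fragile, since that of Glyma.03G126600 was lost without any 1 of the e19 replicates (adjusted p = 0.125 to 0.170) and without null replicate 1, 2, 3, 4 or 5 (0.0757 to 0.144) or e15 replicate 2 (0.0934), and that of Glyma.14G200900 without e19 replicate 2 (0.486) and without null replicate 1 or 4 (0.0536 and 0.0621).

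Over the whole table, 96 genes differed between the events, 61 of them higher and 35 lower in e19 (0.19% and 0.109% of those tested). Of the 96, 75 were called in e15 and not in e19 against the nulls, 3 in e19 and not in e15, 4 in both and 14 in neither. Apart from Glyma.09G235400, the most abundant of the genes lower in e19, the genes leading these lists stood in e19 at the level of the nulls. Glyma.06G273700 was at 6.89, 9.15 and 7.91 CPM in e19, against 0 to 0.0948 CPM in e15, and the nulls had 7.70 ± 0.745 CPM (n = 6). It was 262 times as high in e19 as in e15, counting error alone allowing 72.1 to 2170.0 (adjusted p = 4.48e-12). Glyma.18G119100, the most abundant gene higher in e19, was at 328 ± 24.6 CPM in e19, against 236 ± 18.0 CPM in e15 (n = 3 each), and the nulls had 319 ± 19.4 CPM (n = 6). It was higher in e19 than in e15 by a log2 difference of 0.47 ± 0.08 (SE, adjusted p = 0.00720), while its log2 change in e19 against the nulls was 0.04 ± 0.07 (adjusted p = 0.928). Glyma.05G236500, the gene lowest in e19 relative to e15, had 0 counts in e19 and in the nulls and 5.31 ± 0.250 CPM in e15 (n = 3), which put e19 at least 34.8-fold lower against a floor of 3 counts per library (0.153 CPM).

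The response of e19 was smaller than that of e15 in the number of genes called, 24 against 242 (0.0747% and 0.754% of those tested). In e15 83 genes rose and 159 fell (0.258% and 0.495%). The same order held for genes at an unadjusted p under 0.05, with 2262 genes in e19 (7.04%) and 2927 in e15 (9.11%). Among the 17355 genes averaging 5 CPM or more, 42 were fitted at least 1.5-fold higher and 38 at least 1.5-fold lower in e19, against 66 and 107 in e15. The typical gene did not follow that order, since the median absolute log2 change was 0.10 in each event. The median SE was 0.0901 in e19 and 0.0891 in e15. These had to be close, because a single fit with a shared spread gave both, with equal numbers of event libraries and the same 6 nulls. Replicates of e19 were spread more widely than those of e15, with a median SD of 0.121 against 0.0995 on the log2(CPM + 0.1) scale. With each event reduced to a pair of libraries, e19 gave 17 to 23 called genes and e15 gave 82 to 129. Both comparisons use the same 6 nulls, and the difference between the counts of calls was not tested as such.

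**Figure D3:**
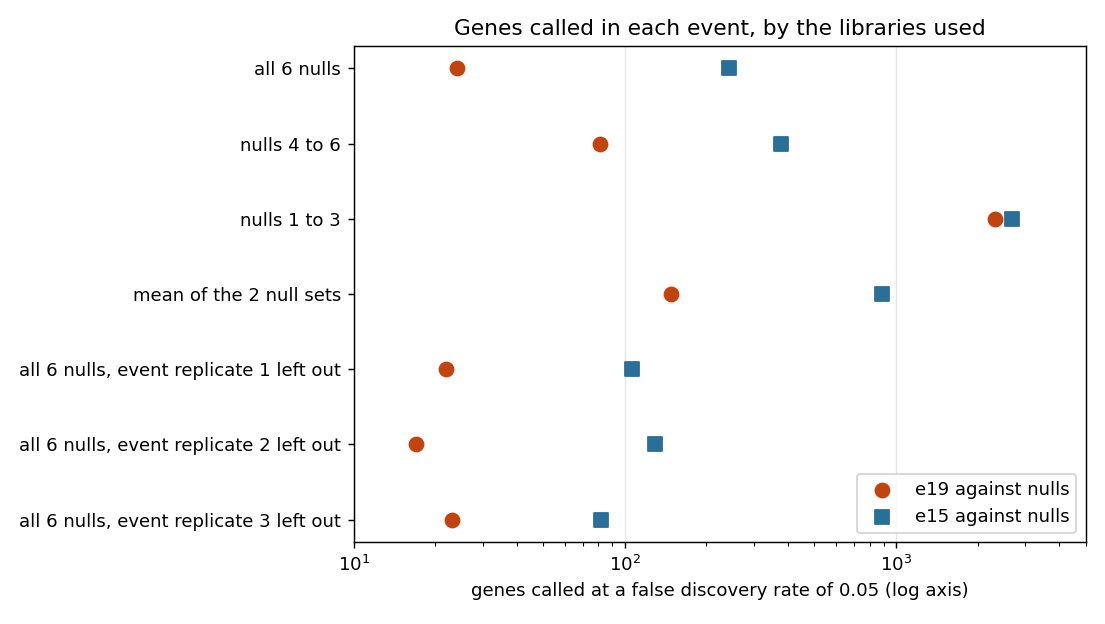
Number of genes called in e19 (circles) and e15 (squares) on a log axis, against all nulls, against each set of nulls and with each event replicate left out in turn. The e19 count is below the e15 count in every row shown and runs between 17 with replicate 2 left out and 2322 against nulls 1 to 3. Fits of pairs of e19 libraries against the separate null sets are not shown.

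The size of the e19 response depended on which nulls it was set against. In a fit with the null sets as separate means, 81 genes were called against nulls 4 to 6, 46 risen and 35 fallen (0.252% of those tested, 0.143% risen and 0.109% fallen). Against nulls 1 to 3 the number was 2322, with 1163 risen and 1159 fallen (7.23%, of which 3.62% risen and 3.61% fallen). For e15 the counts were 376 (1.17%) and 2676 (8.33%). As a group, e19 stood nearer to nulls 4 to 6 over the whole table, with a median absolute fitted log2 change of 0.0980 from these and of 0.146 from nulls 1 to 3. Replicate 3 alone was about as near to either set, with median absolute log2 differences of 0.0992 from the mean of nulls 4 to 6 and 0.104 from that of nulls 1 to 3.

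The leading genes of these lists showed the same dependence. Glyma.15G119700, the most abundant gene lower than in nulls 4 to 6, was at 335, 480.2 and 353 CPM in e19, against 708 to 861 CPM in nulls 4 to 6 (adjusted p = 0.0139), but nulls 1 to 3 had 313 to 341 CPM. Glyma.03G163533, the most abundant gene higher than in nulls 1 to 3, was at 67232, 69269 and 58077 CPM in e19, against 45798 to 48631 CPM in nulls 1 to 3 (log2 change 0.45, adjusted p = 0.00162), but nulls 4 to 6 had 60875 to 62574 CPM. For both genes the e19 range overlapped or enclosed that of the other null set. Among genes lower than in nulls 1 to 3, Glyma.11G238800 was the most abundant, at 934, 1038 and 1196 CPM in e19, against 1419.6 to 1482 CPM in those nulls (log2 change -0.46, adjusted p = 0.00106). Glyma.18G294200 had the largest fall there, at 0.440, 0.421 and 2.40 CPM in e19, against 6.32 to 6.46 CPM in those nulls (log2 change -2.55, adjusted p = 0.0190). In nulls 4 to 6 these genes were at 959 to 1141 CPM and at 0.648 to 1.27 CPM, within the range of the e19 libraries.

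Against each null set separately, 28 of the 32115 genes tested were called in e19 in the same direction, 18 risen and 10 fallen. A further 13 were called in opposite directions. For e15 the same-direction count was 199, with 62 risen and 137 fallen. Of the 24 genes, 23 were among the 28, and the exception was Glyma.03G126600, with an adjusted p of 0.135 against nulls 4 to 6. The other 5 of the 28 were not called against all nulls together and were named after their values were seen. Glyma.12G213600 was at 7842, 7820.0 and 5153 CPM in e19, against 2237 to 2480.0 CPM in nulls 1 to 3 and 3858 to 4095 CPM in nulls 4 to 6. Every e19 library exceeded every null, with a log2 change of 1.56 against nulls 1 to 3 (adjusted p = 1.17e-08) and of 0.80 against nulls 4 to 6 (adjusted p = 0.000479), but of 1.13 with an adjusted p of 0.332 against all nulls. Glyma.06G192100 was at 29.1, 23.04 and 17.0 CPM in e19, against 4.38 to 5.91 CPM in nulls 1 to 3 and 0.610 to 1.20 CPM in nulls 4 to 6. Its log2 change was 2.20 and 4.55 against these sets (adjusted p = 0.000465 and 0.000101) and 2.91 against all nulls (adjusted p = 0.166). In e15 these genes averaged 6867 and 22.8 CPM. The others were Glyma.09G250200, higher in e19 by 0.23 and 0.34 on the log2 scale against nulls 1 to 3 and 4 to 6, and Glyma.13G135500 and Glyma.13G161900, lower with log2 changes of -0.30 and -0.32 and of -1.05 and -1.42. The level of Glyma.13G161900 was low, averaging 0.643 CPM in e19, from 38.0 counts over its libraries, and 1.53 CPM in the nulls. Among the 24 genes, 2 differed between the null sets themselves, where 9.59% of all tested genes did. They were Glyma.09G158900 (adjusted p = 0.0449) and Glyma.15G116900 (adjusted p = 0.0118). Their log2 changes in e19 were 1.49 and 0.84 against nulls 1 to 3, and 1.12 and 0.47 against nulls 4 to 6. Glyma.15G116900 was at 19.3, 19.1 and 15.9 CPM in e19, against 10.1 to 14.1 CPM in the nulls, and its call against all nulls (log2 change 0.65, adjusted p = 0.00703) was lost without e19 replicate 1 or 2 (0.119 and 0.141).

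Replicate 3 of e19 had the lowest total of the 12 libraries. It stood apart from replicates 1 and 2 in its place between the null sets, though not in the size of its differences from them. On the first principal component of log2(CPM + 0.1), which held 25.5% of the variance, it lay at -11.1, against 23.6 and 20.03 for e19 replicates 1 and 2. Nulls 1 to 3 lay there between -43.3 and -39.4 and nulls 4 to 6 between 17.2 and 19.3. On the second component (13.7%) its value was 9.64, against 12.3 and 18.8 for the other e19 replicates, -31.5 to -28.1 for e15 and 1.01 to 16.2 for the nulls. Replicate 3 thus lay between the null sets on the first component and, on the second, away from e15 like the other e19 libraries and the nulls. Its scaling factor by TMM was 1.02, against 0.935 and 0.907 for replicates 1 and 2, 1.10 to 1.12 for nulls 1 to 3 and 0.954 to 0.986 for nulls 4 to 6.

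The place of each library was measured over 719 genes that differed at least 2-fold between the null sets, chosen on the null libraries alone, with 0 at the mean of nulls 1 to 3 and 1 at that of nulls 4 to 6. Replicate 3 of e19 had a median position of 0.435, with quartiles of 0.217 and 0.640. Replicates 1 and 2 had medians of 0.905 and 0.804, and the e15 libraries lay between 0.589 and 0.724. Replicate 3 was nearer to nulls 1 to 3 for 59.2% of these genes, against 23.9% and 25.2% for e19 replicates 1 and 2 and 30.3% to 43.4% for the e15 libraries. It held a middle place for genes of either direction, with a median of 0.521 over the 205 genes higher in nulls 4 to 6 and of 0.407 over the 514 genes higher in nulls 1 to 3.

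**Figure D4:**
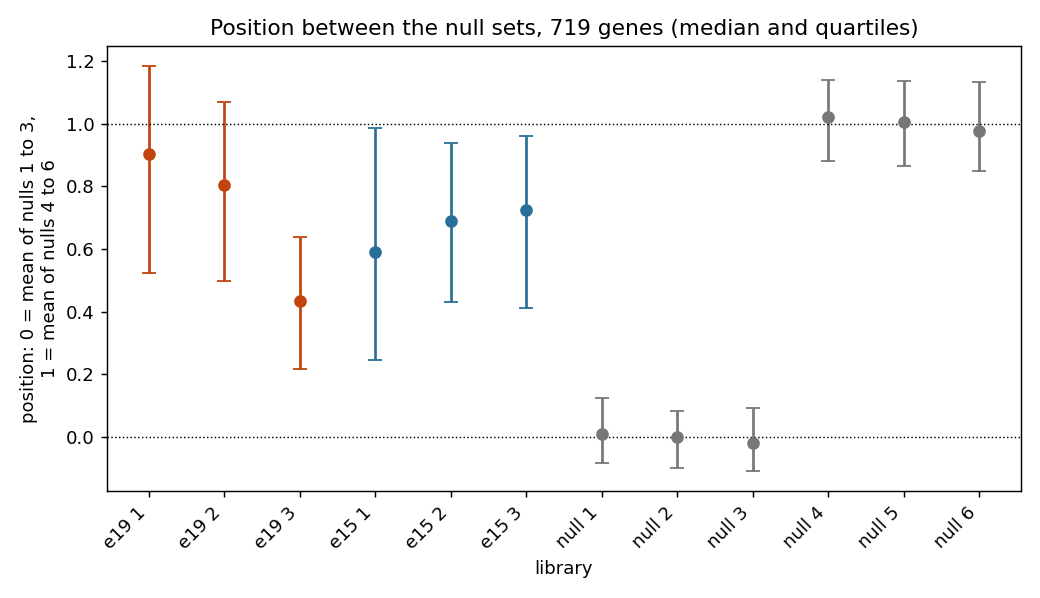
Position of each library between the means of nulls 1 to 3 (0) and nulls 4 to 6 (1), as the median and quartiles over 719 genes that differ between these sets. Replicate 3 of e19, at 0.435, is the lowest of the event libraries, and the nulls, on which the genes were chosen, sit at the ends.

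Gene by gene, the deviation of replicate 3 from the mean of e19 replicates 1 and 2 ran along the difference between the null sets. Over 17355 genes Pearson's r with the difference of nulls 1 to 3 from nulls 4 to 6 was 0.583, a description across genes that share their libraries and are not independent. The same measure was -0.279 for replicate 1 and -0.249 for replicate 2, which are tied to replicate 3 because each deviation is taken from the other replicates. For the e15 libraries it lay between -0.136 and 0.0742. In size replicate 3 did not stand out within e19. It was at least 2-fold from the mean of the other replicates for 31 genes, replicate 1 for 35 and replicate 2 for 10, while the nulls, each against the others of its set, gave 1 to 3 genes. The median absolute log2 difference was 0.158 between replicates 1 and 2, and 0.128 and 0.131 between each of these and replicate 3. Replicate 3 correlated at 0.983 to 0.984 with nulls 1 to 3 and at 0.982 with nulls 4 to 6 across genes, whereas replicates 1 and 2 correlated at 0.974 to 0.976 with nulls 1 to 3 and at 0.983 to 0.985 with nulls 4 to 6.

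**Figure D5:**
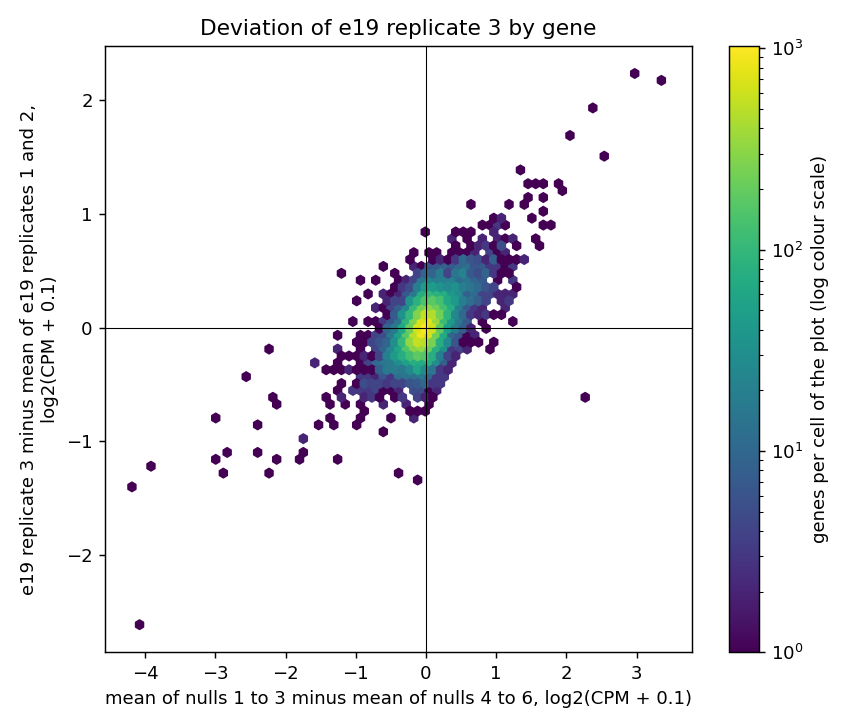
For 17355 genes averaging 5 CPM or more, the vertical axis gives e19 replicate 3 minus the mean of e19 replicates 1 and 2 and the horizontal axis nulls 1 to 3 minus nulls 4 to 6, both in log2(CPM + 0.1), with colour for the number of genes. The cloud rises from lower left to upper right, with a Pearson's r of 0.583 across genes.

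Among the 17348 genes averaging 5 CPM or more over the e19 libraries, the 2 that lay lowest and the 2 that lay highest in replicate 3 relative to replicates 1 and 2 are given here, and in each the null sets also stood far apart. Glyma.09G158500 was at 26.04 CPM in replicate 3, against 198 and 129.7 CPM in replicates 1 and 2, and the nulls had 2.38 ± 1.59 CPM in replicates 1 to 3 and 43.4 ± 36.4 CPM in replicates 4 to 6 (n = 3 each). Glyma.02G252800 was at 41.6 CPM in replicate 3, against 110 and 111 CPM in replicates 1 and 2, and the nulls had 4.69 ± 0.158 and 87.4 ± 9.09 CPM in these sets. On the other side, Glyma.09G092700 was at 87.3 CPM in replicate 3, against 11.3 and 32.6 CPM in replicates 1 and 2, and the nulls had 211 ± 28.3 and 19.8 ± 2.41 CPM. Glyma.17G083600 was at 14.7 CPM in replicate 3, against 3.03 and 4.79 CPM in replicates 1 and 2, and the nulls had 22.9 ± 0.401 and 4.26 ± 0.325 CPM. In all 4 genes replicate 3 lay toward nulls 1 to 3 from the other e19 replicates, and none of the 4 was called in e19 against all nulls (adjusted p = 0.728 to 0.884).

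Among the 24 genes called in e19, replicate 3 was the e19 library nearest to the nulls for 15, replicate 1 for 4 and replicate 2 for 5. The risen genes had a median log2 level over the null mean of 1.01 in replicate 3, against 1.45 and 1.54 in replicates 1 and 2. For the fallen genes the medians were -1.69 in replicate 3 and -1.29 and -1.41 in replicates 1 and 2. Replicate 3 was nearest to the nulls for 10 of the 15 risen genes and for 5 of the 9 fallen ones, and farthest from them for 1 risen and 3 fallen genes. Of the genes that differed between the events, Glyma.04G194900 was lowest (17.7 CPM) and Glyma.04G201600 highest (12.7 CPM) in replicate 3, both away from the nulls. Glyma.06G243500 (5.87 CPM) and Glyma.05G079651 (0.511 CPM) were nearest to the nulls there.

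Leaving replicate 3 out changed the count against all nulls little and the counts against the null sets much. Without it 23 genes were called against all nulls, 17 risen and 6 fallen, of which 20 were among the 24. The 4 lost were Glyma.03G126600, Glyma.04G000300, Glyma.08G200100 and Glyma.13G152508 (adjusted p = 0.125, 0.351, 0.174 and 0.0920), and the 3 gained were Glyma.03G188400, Glyma.13G291800 and Glyma.19G032167 (adjusted p = 0.0332, 0.00343 and 0.0174), all named after their values were seen. Without replicate 1, and likewise without replicate 2, 17 of the 24 calls were kept. Against nulls 1 to 3, replicates 1 and 2 alone gave 3016 called genes, where pairs that included replicate 3 gave 1412 and 1453. Against nulls 4 to 6 the order was reversed, with 64 genes for replicates 1 and 2 and with 103 and 158 for the pairs that included replicate 3. Against the mean of the null sets, all 3 replicates gave 148 called genes (0.461%), replicates 1 and 2 alone gave 615, and the pairs with replicate 3 gave 64 and 116. These fits of e19 pairs against the null sets were chosen after the data were seen. The scaling factor of replicate 3 and its share of counts in the most abundant genes lay between those of nulls 1 to 3 and those of nulls 4 to 6. Its total was the lowest, at 19207771. Totals were 21357512 to 22773561 in nulls 1 to 3 and 21640645 to 23276877 in nulls 4 to 6. The part of the total, the factor and the share in these results was not tested.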

How the data were processed

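The authors deposited 1 table of estimated counts of reads per gene, with a column per library and 0 columns left unused here. Per the labels, RNA was captured by poly(A), libraries were made with a stranded kit and single reads were sequenced. The aligner, the counter, the use of strand and the annotation, beyond a tag for a soybean Williams 82 release in the deposited table's name, were not given in the sources used here. Values were not whole (tolerance 0.0005) in some library for 28752 of the 52872 genes and for 79.9% of those tested.

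Counts were rounded, filtered with filterByExpr, scaled by TMM and tested with edgeR 4.0.16 (R 4.3.3, limma 3.58.1), using the robust quasi-likelihood test in 1 model of the 12 libraries with group means and no covariate, and Benjamini-Hochberg adjustment over all 32115 genes. DESeq2 1.42.0 was an alternative. Levels are CPM on TMM-scaled totals, and plots and positions use log2(CPM + 0.1). Standard errors were computed from the log2 change and the square root of F. Intervals are 95%. Those of log2 differences rest on the standard error, while those of count ratios and floors of 3 counts cover counting error only. The test was checked on simulated counts in which all nulls shared a single mean per gene. That check does not cover the split between the null sets or the place of e19 replicate 3.

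Genes were named by rule: per comparison, the called genes with the largest change and the highest level among those of at least 5 CPM in either group without overlap, at most 2 in each direction, and for e19 replicate 3 the 2 highest and 2 lowest against replicates 1 and 2 among genes that average 5 CPM or more in e19. Genes outside the rule are marked as chosen after seeing their values. The members and lists were chosen with earlier results of these data known. Lists by gene description (sulfur metabolism, seed proteins, markers of other tissues) were not analysed here, as the identifiers carry no names.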

Additional observations from a re-analysis of the deposited data

Results flagged for a closer look

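The 7 genes called in e19 that also differed from e15 in edgeR's test of e19 against e15 are given with their log2 difference, e19 minus e15. Lower in e19 were Glyma.04G194900 (-1.82), Glyma.05G079651 (-3.62) and Glyma.09G235400 (-0.89). Higher in e19 were Glyma.04G201600 (3.09), Glyma.06G243500 (6.06), Glyma.14G107350 (6.16) and Glyma.19G105100 (1.51). The values of Glyma.06G243500 and Glyma.14G107350 rest on 9 counts and 1 count in e15 and depend on the prior count.

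Among 33 sets of null values tested for a lone library far from the others, 1 was found, Glyma.19G105100, with 5.79 CPM in null replicate 4. Chance marks about 1 set in 20. The e19 and e15 groups hold 3 libraries each and were not tested in this way.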

How the results depend on the processing

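The count of 24 genes in e19 was 22 to 27 with median-of-ratios factors, library totals alone, no filter, a CPM of at least 1 in 3 libraries, no robust option or a fit of e19 and nulls alone, 35 with DESeq2 and 19 to 26 without 1 null or e15 library. Library totals alone shifted all genes, with a median of -0.13 (log2) in e19. With the nulls as 2 sets it was 148 against their mean, 81 against nulls 4 to 6 alone and 2322 against nulls 1 to 3 alone. Leaving out an e19 replicate gave 17 to 23 against all nulls and, with the null sets separate and replicate 1, 2 or 3 left out, 64, 116 and 615 against the mean of the sets, 103, 158 and 64 against nulls 4 to 6, plus 1412, 1453 and 3016 against nulls 1 to 3. A replicate block gave 1945 genes in e19, 292 for e19 against e15 and 2350 in e15. In that fit only nulls 1 to 3 share numbers with an event, and the labels do not say that the numbers are pairs, so they were not taken as such. Deviations of same-numbered e19 and null libraries correlated at -0.333, -0.175 and 0.508. These values cannot decide the matter, because the sign of each e19 library's correlations followed the null sets. For replicates 1 and 2 it was negative with nulls 1 to 3 and positive with nulls 4 to 6, and for replicate 3 the reverse. The 96 genes between the events became 145 in a fit of the events alone and 67 to 101 without 1 library. The 242 genes of e15 became 376 against nulls 4 to 6, 2676 against nulls 1 to 3 and 888 against the mean of these sets, with a range of 82 to 268 without 1 library. The cause of these changes was not tested. For 15 of the called genes, those described with their values, 441 of 480 results under the alternatives were called in the same direction, 39 missed the threshold and 0 reversed. Under 32 alternatives each, Glyma.03G126600 missed it in 16 (adjusted p up to 0.264), Glyma.06G243500 in 10 (up to 0.209), Glyma.14G200900 in 8 (up to 0.486), Glyma.14G107350 and Glyma.15G116900 in 2 each (up to 0.103 and 0.141) and Glyma.19G105100 in 1, library totals alone (0.255). Library totals alone also ended the calls of Glyma.06G243500 (0.0555) and Glyma.14G200900 (0.0752), no filter those of Glyma.06G243500 (0.0808) and Glyma.03G126600 (0.0998), and the test without the robust option and the fit of e19 and nulls alone that of Glyma.14G200900 (0.0577 and 0.0688). Genes under 3 counts per library lie at the limit of depth.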
